A study of Mus musculus with 24 samples.

Results

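Microglia, the resident macrophages of the brain, are usually recognised in their resting (homeostatic) state by a small set of transcripts. The 9 described here are P2ry12, P2ry13, Gpr34, Cx3cr1, Tmem119, Siglech, Selplg, Olfml3 and Sall1. They were chosen by name and were 9 of the 46983 gene identifiers counted, and all 9 were among the 14599 genes that passed the filter on low counts. The tissue was parietal cortex of C57Black/6 mice, with 24 libraries from 6 animals in each of 4 groups. These were intact mice aged 3 months, intact mice aged 18 months, and mice of both ages whose middle cerebral artery had been closed for good by coagulation and cutting (middle cerebral artery occlusion, MCAO, a model of ischaemic stroke) 3 days before the tissue was taken. No other treatment or genetic change is named. The controls had no operation, so MCAO and control also differed in anaesthesia and the opening of the skull, and the infarcts of this model are small and cortical.

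In healthy tissue several of these genes serve the sensing of neighbouring cells. P2ry12 and P2ry13 encode receptors for ADP, which damaged cells release, and Gpr34 encodes a receptor for lysophosphatidylserine. Cx3cr1 encodes the receptor of fractalkine (Cx3cl1), a chemokine displayed by neurons. Sall1 encodes a zinc finger transcription factor that maintains microglial identity, and TGF-beta signalling is needed for the same state. Microglia activated by injury are known to lower several of these genes, and macrophages that enter the brain from blood carry little P2ry12, Tmem119 or Sall1.

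The depth of the libraries was 3.30 to 13.1 M gene counts (M standing for mega), median 5.15 M. Levels are counts per M (CPM) on the TMM scale, which assumes that most genes do not change. Neuron markers were abundant in every group, with a summed level of 3892 to 11010 CPM over 8 genes, and all 20 further core genes of microglia had counts in every group. Young MCAO libraries A and C stood apart from the other 4 of their group, A with 7023 and C with 5385 CPM summed over those 20 genes where the group median was 3764. Choroid plexus transcripts were present in young control D and young MCAO library C, and haemoglobin transcripts in aged MCAO libraries C, E and F. Where leaving out such libraries ended a call or moved a value by over 1.5 times, the value without them is given.

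On GRCm38 with the GENCODE M21 annotation, P2ry13 (ENSMUSG00000036362, chromosome 3, 59207892 to 59210882) and P2ry12 (ENSMUSG00000036353, chromosome 3, 59216272 to 59262871) are neighbours on the minus strand, 5389 bases apart. Both lie within Med12l, a gene of the opposite strand, which shares 9 exonic bases with P2ry12 and 0 with P2ry13. RefSeq promoters (GRCm38.p6) were at hand for 6 of the 9 genes, in 8 windows. The 250 bases upstream of the start site of these 2 neighbours are shown because both genes rose after MCAO at both ages. Capitals mark AGGAAGT, a core motif of the myeloid factor PU.1, which was searched on both strands.
P2ry12: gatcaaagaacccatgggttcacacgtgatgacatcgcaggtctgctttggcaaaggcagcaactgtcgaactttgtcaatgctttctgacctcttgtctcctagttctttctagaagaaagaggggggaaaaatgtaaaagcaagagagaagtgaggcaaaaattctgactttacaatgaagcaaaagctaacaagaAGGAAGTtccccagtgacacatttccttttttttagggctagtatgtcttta
P2ry13: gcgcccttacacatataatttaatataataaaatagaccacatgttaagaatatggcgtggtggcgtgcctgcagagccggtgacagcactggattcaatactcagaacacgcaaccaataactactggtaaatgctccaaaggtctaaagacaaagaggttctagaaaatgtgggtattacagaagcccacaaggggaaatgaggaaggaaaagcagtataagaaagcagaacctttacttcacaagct
The P2ry12 window lies at chr3:59262986-59263235 and the P2ry13 window at chr3:59210883-59211132, both on the minus strand. The motif began 52 bases before the P2ry12 start site and was not found in the P2ry13 window. Besides P2ry12, 1 of the Sall1 windows held it, so that 2 of the 6 genes, and 2 of the 8 windows, had a match. Among all 32851 promoter windows, 3072 (9.35%) held the motif, and a match is a run of letters, not a measured binding site. The windows searched also took in bases past the start site, which are not shown.

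After MCAO all 9 genes rose at both ages. By edgeR's quasi-likelihood test with Benjamini-Hochberg adjustment over all 14599 genes (threshold 0.05), 9 of 9 were higher at 3 months, where 20.1% of all genes tested were higher, and 9 of 9 at 18 months, where 23.7% were. The 6 MCAO libraries lay wholly above the 6 controls in 6 of the 9 genes at 3 months (11.1% of all genes) and in 6 of the 9 at 18 months (16.0% of all genes). The median log2 change over the 9 genes was 1.17 at 3 months and 1.23 at 18 months, against -0.04 and -0.03 over all genes tested. Without young MCAO libraries A and C, 8 of the 9 passed at 3 months, with a median of 0.93. The order of the changes ran from Olfml3 at the top of both ages to P2ry12 at the bottom at 3 months and Sall1 at 18 months. In whole tissue, more cells of a type and more RNA per cell cannot be told apart.

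**Figure D1:**
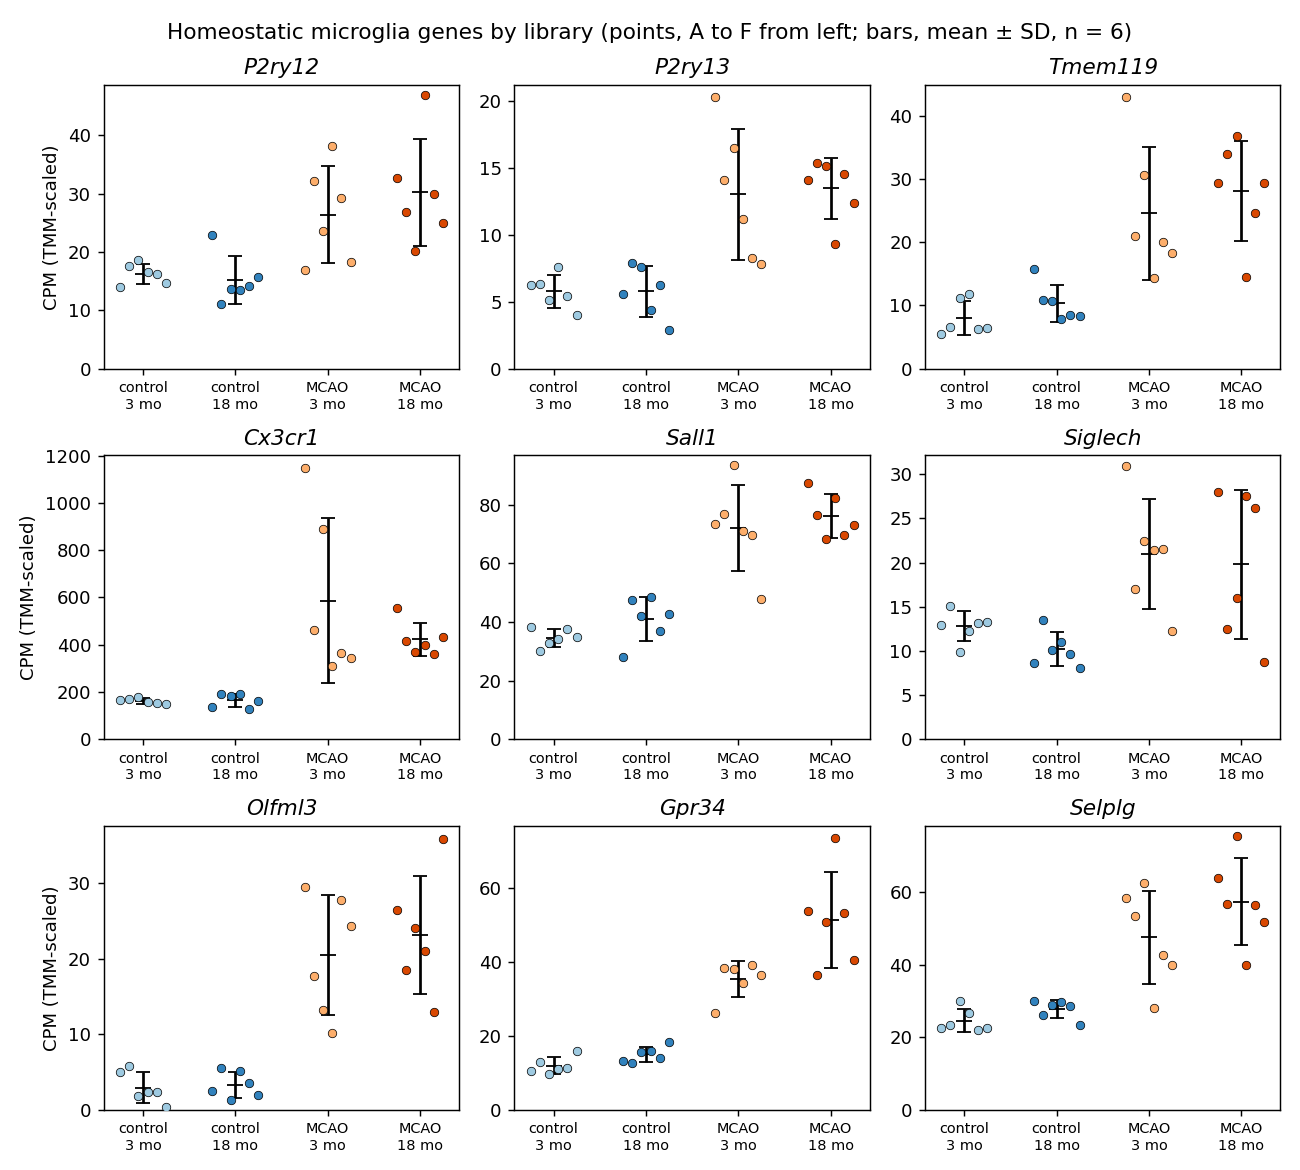
Level of each gene in CPM (linear axes from 0) in each of the 24 libraries, grouped by age and treatment, with points for libraries A to F from left and bars for mean ± SD of 6. All 9 group means rise from control to MCAO at both ages, and the scatter of Cx3cr1 after MCAO at 3 months is set by libraries A and C at 1150 and 891 CPM.

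Both ADP receptors rose at both ages. P2ry12, which guides microglial processes towards injury, ranged from 14.02 to 18.6 CPM (median 16.4) in young controls and from 16.8 to 38.2 (median 26.4) after MCAO at 3 months. In aged controls it ranged from 11.1 to 22.9 CPM (median 13.9), and after MCAO at 18 months from 20.3 to 46.8 (median 28.4). The groups overlapped at both ages, since 4 of 6 young and 5 of 6 aged MCAO libraries lay above every control. Among aged controls library A was highest at 22.9 CPM, and the next, at 15.7, lay below every aged MCAO library. The log2 change was 0.69 ± 0.20 (SE) at 3 months (adjusted p = 0.0088) and 0.98 ± 0.20 at 18 months (adjusted p = 0.00025).

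P2ry13, whose product also answers to ADP, rose with no overlap of the groups at either age. It ranged from 4.03 to 7.63 CPM (median 5.85) in young controls and from 7.87 to 20.4 (median 12.7) after MCAO. In aged animals it ranged from 2.94 to 7.88 (median 5.94) and from 9.36 to 15.4 (median 14.3). The lowest MCAO library of 3 months stood only just above the highest control. This gave log2 changes of 1.17 ± 0.24 (adjusted p = 0.00028) and 1.23 ± 0.24 (adjusted p = 1e-04). Without young MCAO libraries A and C, the 3-month change was 0.82 ± 0.23 for P2ry13 and 0.86 ± 0.20 for P2ry12. The difference between the receptors was not tested, and its sign at 3 months turned with those libraries. P2ry12 is also a receptor of blood platelets, so platelet markers were read beside it. Their summed level over 6 genes was 9.04 to 20.3 CPM in young controls and 15.5 to 27.2 after MCAO at 3 months, and 9.999 to 14.1 and 10.1 to 15.01 CPM at 18 months. Of 3 platelet genes tested, 2 rose at 3 months, 0 at 3 months without A and C, and 0 at 18 months. Of the 3, 1 passed the filter with fewer than 6 of the 12 controls at its level. The summed level was 27.1 CPM in young MCAO library A and 27.2 in C, and the part of platelets in the P2ry12 values was not tested.

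Gpr34 rose with no overlap of the groups at either age. It ranged from 9.61 to 15.9 CPM (median 11.2) in young controls and from 26.2 to 39.3 (median 37.2) after MCAO. In aged animals it went from 12.8 to 18.4 CPM (median 14.8) up to 36.5 to 73.6 (median 52.0). Every MCAO library of either age lay above every control of its age. Its log2 changes were 1.56 ± 0.16 (adjusted p = 1.1e-08) and 1.78 ± 0.15 (adjusted p = 4.3e-10), the smallest p of the 9 genes at both ages. Gpr34 (ENSMUSG00000040229, chromosome X, 13632089 to 13640858) lies inside Cask on the opposite strand with 0 shared exonic bases. Cask went from 121 ± 8.29 to 101 ± 11.01 CPM at 3 months (mean ± SD, n = 6; log2 change -0.26, adjusted p = 0.012), opposite to Gpr34. At 18 months Cask did not pass the test (log2 change -0.19, adjusted p = 0.056).

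Cx3cr1 rose with no overlap at either age, and its size at 3 months depended on 2 libraries. It ranged from 148.5 to 180.5 CPM (median 163) in young controls and from 311 to 1150 (median 414) after MCAO. At 18 months it ranged from 126 to 192 CPM (median 174) and from 362.5 to 557 (median 407). After MCAO at 3 months, library A reached 1150 CPM and library C 891, and the other 4 ran from 311 to 460.5. The log2 change was 1.86 ± 0.24 (adjusted p = 1.6e-06) and 1.35 ± 0.24 (adjusted p = 5.4e-05). Without libraries A and C it was 1.19 ± 0.13 at 3 months (adjusted p = 1.7e-08), a fold of 2.28 in place of 3.62. The gene (ENSMUSG00000052336, chromosome 9, 119901616 to 120069879) shares 78 exonic bases with the antisense gene Gm33858, and since the use of strand in counting is not stated, reads there cannot be assigned.

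Its ligand went the other way. Cx3cl1 fell from 1172 ± 119 to 594 ± 176 CPM at 3 months (log2 change -0.98, adjusted p = 5.7e-05) and from 1033 ± 133 to 540 ± 124 at 18 months (-0.94, adjusted p = 6.2e-05). It was lowest in library A of MCAO at 3 months, at 274.5 CPM, where Cx3cr1 was highest. Of the 2 proteases that shed fractalkine from the cell surface, Adam17 rose at both ages, by 1.27 and 1.74, and Adam10 at 18 months by 0.78 (adjusted p = 0.00051). At 3 months Adam10 had a log2 change of 0.35 ± 0.17 (adjusted p = 0.11), and 0.59 without libraries A and C (adjusted p = 0.0023). Neuron markers moved with the ligand: of 8 tested, 4 fell at 3 months and 5 at 18 months, with Snap25 at -0.79 and -1.03. Without young MCAO libraries A and C, 5 fell at 3 months and 8 at 18 months, and Snap25 had -0.48 at 3 months. The part of neuron content in the fall of Cx3cl1 was not tested.

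Among the surface and secreted proteins, Tmem119, a transmembrane protein long used as a microglia marker, rose strongly. It ranged from 5.54 to 11.8 CPM (median 6.59) in young controls and from 14.4 to 43.0 (median 20.6) after MCAO. At 18 months Tmem119 ranged from 7.89 to 15.7 CPM (median 9.65) and from 14.5 to 36.9 (median 29.3). The groups were separate at 3 months. At 18 months library D of MCAO, at 14.5 CPM, fell below the highest control, library A at 15.7. The next aged control was at 10.9 CPM, below every aged MCAO library. The log2 change was 1.63 ± 0.27 (adjusted p = 2.2e-05) and 1.44 ± 0.26 (adjusted p = 5e-05). Without young MCAO libraries A and C the first was 1.20 ± 0.24 (adjusted p = 3e-04).

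Olfml3, a secreted glycoprotein of the olfactomedin family, had the largest change of the 9 at both ages from the lowest counts. It ranged from 0.384 to 5.74 CPM (median 2.37) in young controls and from 10.2 to 29.5 (median 21.0) after MCAO. In aged animals it went from 1.27 to 5.56 CPM (median 3.02) to 12.9 to 35.9 (median 22.5). No control library of either age reached the lowest MCAO library, and the lowest control held 2 reads. The fold was 7.19 at 3 months (log2 change 2.85 ± 0.38, adjusted p = 1.8e-06) and 6.72 at 18 months (2.75 ± 0.37, adjusted p = 1.1e-06). At such counts the controls differ among themselves, with an SD of 68.8% of the mean at 3 months, and fibroblast markers rose beside it, 6 of 7 at both ages. Of these 7 markers, 2 passed the filter with fewer than 6 of the 12 controls at its level, so that their direction was partly set by the filter. The summed level of the 7 fibroblast markers went from 39.3 to 54.9 CPM in young controls to 174 to 741 after MCAO, and the part of fibroblasts in Olfml3 was not tested.

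Siglech, a sialic acid binding lectin, had the least secure rise. It ranged from 9.91 to 15.1 CPM (median 13.1) in young controls and from 12.3 to 31.0 (median 21.5) after MCAO, and from 8.07 to 13.5 (median 9.89) to 8.80 to 28.0 (median 21.1) in aged animals. The groups overlapped at both ages: library F of MCAO was the lowest of its group at each age and lay among the controls. The fitted log2 changes were 0.72 ± 0.23 (adjusted p = 0.016) and 0.96 ± 0.24 (adjusted p = 0.0017). Leaving out library A of MCAO at 3 months ended the call (0.56, adjusted p = 0.06), as did leaving out A and C (0.50, adjusted p = 0.12). Siglech also marks plasmacytoid dendritic cells in mice. Of 6 tested genes of those cells, Bst2, which interferons induce in many cell types, rose at both ages. Pacsin1, also a neuronal gene, fell at both, and the other 4 passed the test in neither. Klk1 had 0 counts after MCAO at 3 months. The 8 listed genes summed to 1475 to 1704 CPM in young controls, where Siglech reached at most 15.1. The list thus cannot show how these cells moved, and their part in the Siglech values was not tested.

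Selplg encodes PSGL-1, the selectin ligand that microglia share with blood leukocytes. It ranged from 22.1 to 30.0 CPM (median 22.99) in young controls and from 28.2 to 62.6 (median 48.1) after MCAO, with 5 of 6 above every control. In aged animals it ranged from 23.5 to 29.9 CPM (median 28.8) and from 39.9 to 75.6 (median 56.7), with no overlap. For Selplg the log2 changes were 0.96 ± 0.16 (adjusted p = 2.8e-05) and 1.04 ± 0.16 (adjusted p = 4e-06). The 5 tested genes of selectin binding and leukocyte adhesion, 2 of which passed the filter mainly through MCAO libraries, rose with it at both ages. Among them were P-selectin (Selp), which had no count in the controls and reached 1.96 ± 1.72 CPM at 3 months and 6.64 ± 2.52 at 18 months, and the integrin chain Itgb2 (log2 changes 2.94 and 3.22).

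Sall1, the transcription factor, roughly doubled its level with no overlap at either age. It ranged from 29.9 to 38.4 CPM (median 34.6) in young controls and from 47.8 to 93.5 (median 72.2) after MCAO. At 18 months it ranged from 28.1 to 48.4 CPM (median 42.4) and from 68.2 to 87.4 (median 74.8). Sall1 thus had log2 changes of 1.05 ± 0.13 (adjusted p = 4.6e-07) and 0.90 ± 0.13 (adjusted p = 2.8e-06), folds of 2.08 and 1.86. Of 16 tested myeloid transcription factors and TGF-beta genes, 8 rose and 1 fell at 3 months, and 9 rose and 1 fell at 18 months. The gene of PU.1, Spi1, rose by 3.22 and 2.91 and Irf8 by 2.68 and 2.49. Of the TGF-beta genes, Tgfb1, Tgfbr1 and Tgfbr2 rose at both ages (3-month log2 changes of 2.85, 0.89 and 1.57). Without A and C, Tgfb1 had 2.02 and Spi1 2.64 at 3 months. Of the 16 genes 2, Tgfb1 among them, passed the filter with fewer than 6 of the 12 controls at its level. Smad3 had -0.09 ± 0.13 (adjusted p = 0.62) at 3 months. Without A and C, Nrros also passed the test at 3 months (0.92). Tgfb2, Smad2, Smad4, Itgav and Itgb8 did not, with log2 changes from -0.025 for Smad2 to 0.29 for Smad4. The gene that fell was Mef2c (-0.42 and -0.71), a factor of microglia and of cortical neurons.

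**Figure D2:**
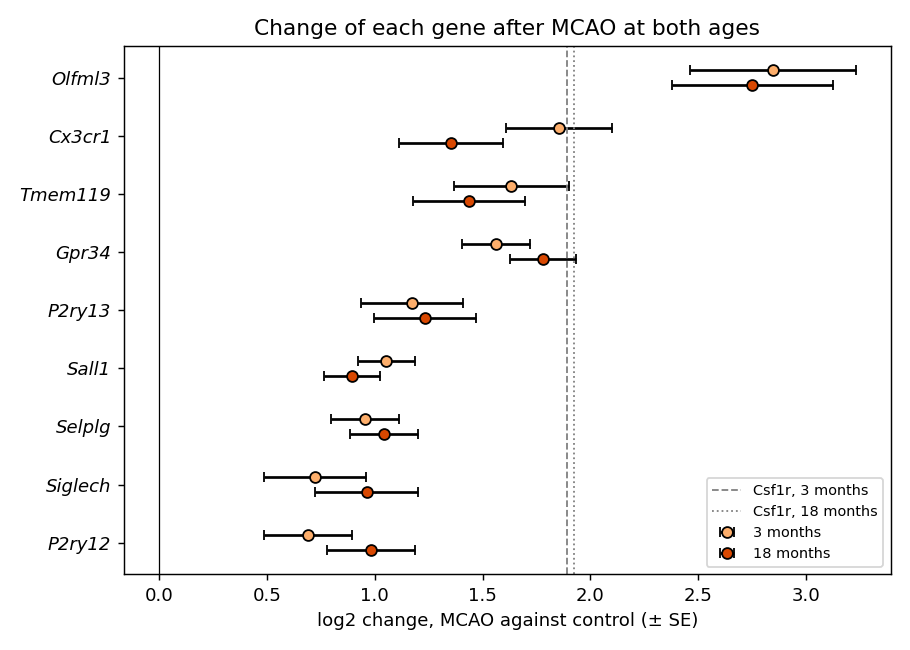
Log2 change of each gene after MCAO against control with its SE, for mice of 3 months (pale points) and 18 months (dark points); grey lines mark Csf1r at 1.89 and 1.92. All 18 estimates lie right of 0, and at each age 8 of the 9 lie left of the Csf1r line of that age, Olfml3 being the exception. Most genes tested would lie left of these lines too. Only 5.97% had a larger log2 change than Cx3cr1 (1.86) at 3 months, and 7.64% a larger one than Gpr34 (1.78) at 18 months.

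Other lists of microglial genes had higher medians. The 20 further core genes of microglia, which include the CSF1 receptor Csf1r and Aif1 (IBA1), had a median log2 change of 2.30 at 3 months, with 18 higher and 0 lower. At 18 months the median was 2.18, with 19 higher and 0 lower. Of the 20, 1 passed the filter with fewer than 6 of the 12 controls at its level. Of 23 genes of disease-associated microglia, 21 rose and 1 fell at 3 months (median 3.07), and 22 rose and 1 fell at 18 months (median 2.57); 4 of the 23 passed the filter mainly through MCAO libraries. Spp1, encoding osteopontin, had log2 changes of 7.08 and 6.81, and Lgals3, encoding galectin-3, 7.65 and 6.01. All 4 genes of DAP12 signalling, among them Trem2 (3.27 and 2.35), also rose, though 1 of the 4 passed the filter with fewer than 6 of the 12 controls at its level. Without young MCAO libraries A and C the 3-month medians were 1.87 for the core genes, with 17 higher, and 2.42 for the disease-associated genes, and Trem2 had 2.63.

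Transcripts of other phagocytes were also higher. Of 12 monocyte and infiltrating macrophage genes 9 were tested, and 6 of these passed the filter with fewer than 6 of the 12 controls at its level, so that their direction was partly set by the filter. The summed level over all 12 genes was 50.5 to 67.3 CPM in young controls and 260 to 823.5 after MCAO at 3 months, and 39.7 to 84.9 and 564 to 952 CPM at 18 months. Ccr2, the chemokine receptor of inflammatory monocytes, went from 0.332 ± 0.299 to 13.8 ± 15.8 CPM at 3 months and from 0.423 ± 0.326 to 21.5 ± 6.53 CPM at 18 months. Of 7 tested genes of border macrophages, 5 also passed the filter with fewer than 6 of the 12 controls at its level. So did 5 of 8 genes of the cell cycle. The summed level over the 8 border macrophage genes was 14.2 to 22.3 CPM in young controls and 64.4 to 210.1 after MCAO at 3 months, and that of the 8 cell cycle genes 16.9 to 30.9 and 293 to 548 CPM. Cx3cr1, Selplg and Csf1r are also expressed by monocytes, and the part of entering cells in any of these changes was not tested.

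To place each gene within the phagocyte RNA of its own library, it was divided by Csf1r, which rose from 37.8 ± 3.86 to 140 ± 77.6 CPM at 3 months and from 31.4 ± 3.46 to 119 ± 12.5 CPM at 18 months. Its log2 change at 3 months was 1.89, and 1.30 without libraries A and C. The log2 ratio, with 0.5 CPM added to both, was compared by exact two-sided permutation tests, 36 in all, for which 0.00216 is the smallest p attainable with 6 against 6. After MCAO the ratio was lower in 5 of 9 genes at 3 months and in 5 of 9 at 18 months. P2ry12, Sall1, Siglech and Selplg were lower at both ages. Csf1r itself rose more than most genes. At 3 months 5.97% of all genes tested had a larger log2 change than Cx3cr1 (1.86), which lay just below Csf1r. At 18 months 7.64% had a larger one than Gpr34 (1.78), also below Csf1r (1.92). A lower ratio is thus not particular to the 9 genes, and the share of all genes with a lower ratio was not tested.

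For P2ry12 the ratio fell from -1.19 ± 0.18 to -2.29 ± 1.03 at 3 months (mean ± SD of log2 ratios, n = 6; difference -1.10, exact permutation p = 0.00433, adjusted 0.0173) and from -1.05 ± 0.42 to -2.001 ± 0.44 at 18 months (difference -0.95, exact permutation p = 0.00216, adjusted 0.0156). It was below every control in 5 of 6 libraries at 3 months and in 6 of 6 at 18 months. Library A at 3 months had the lowest ratio, -4.005. Without A and C the difference was -0.50 (exact permutation, adjusted p = 0.034). Siglech had differences of -1.08 at both ages, and Selplg of -0.83 and -0.90, with no Selplg ratio after MCAO above any control of its age. For Sall1 the differences were -0.70 and -1.003, the first losing its call without libraries A and C (-0.38, exact permutation, adjusted p = 0.078). With single libraries of the 2 groups left out in turn, the 3-month call held in 6 of 12 repeats for P2ry12, each young control ending it (exact permutation, adjusted p up to 0.083). For Sall1 it held in 7 of 12, ended by each young control but B (exact permutation, adjusted p up to 0.078). Siglech and Selplg held in 12 of 12, as did the calls at 18 months.

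P2ry13 passed at 3 months (-0.68, exact permutation, adjusted p = 0.0173; 0.052 without young control D) and had -0.71 at 18 months (exact permutation, adjusted p = 0.0831). Cx3cr1 passed at 18 months (-0.55, exact permutation, adjusted p = 0.0283) and had -0.06 at 3 months (adjusted p = 0.535), its ratio ranging from 1.75 to 2.24 after MCAO and from 1.98 to 2.27 in controls. The 1150 CPM of Cx3cr1 in library A thus went with 278 CPM of Csf1r, the highest of that gene. Tmem119, Gpr34 and Olfml3 passed at neither age; Olfml3 had positive differences of 1.04 and 0.79 (exact permutation, adjusted p = 0.126 and 0.101).

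**Figure D3:**
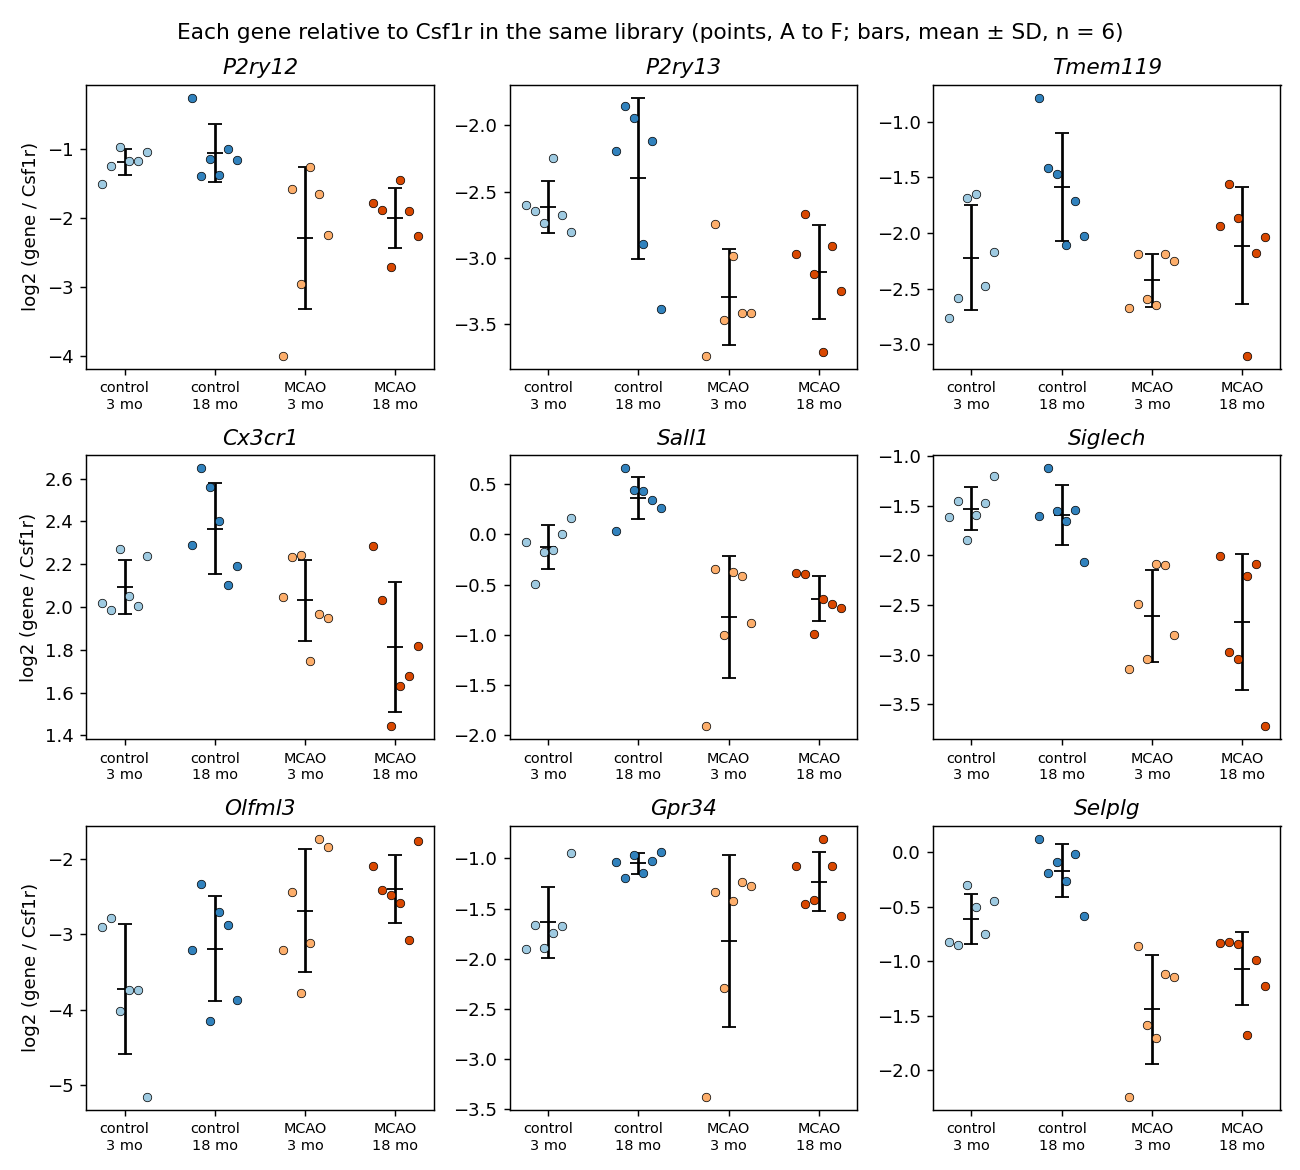
Log2 ratio of each gene to Csf1r in the same library (0.5 CPM added), by group, with points for libraries A to F and bars for mean ± SD of 6; each panel has its own axis. P2ry12, Siglech, Selplg and Sall1 lie lower after MCAO at both ages, and library A of MCAO at 3 months is the lowest point for P2ry12 (-4.005) and Gpr34 (-3.38).

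Age alone did not move the 9 genes past the test. In control cortex 0 of 9 differed between 18 and 3 months, where 0.603% of all genes did, and by an unadjusted p under 0.05 the count was 0 with edgeR, DESeq2 and limma-voom alike. Gpr34 came nearest, from 11.9 ± 2.26 to 14.97 ± 2.09 CPM (log2 change 0.32 ± 0.16, 95% interval -0.02 to 0.66, adjusted p = 0.58). The other log2 changes ran from -0.33 ± 0.25 for Siglech to 0.37 ± 0.28 for Tmem119, intervals of -0.85 to 0.19 and -0.21 to 0.96. In the same aged controls, 7 of 23 disease-associated genes were higher, among them Clec7a (from 0.287 ± 0.337 to 6.04 ± 4.96 CPM, adjusted p = 0.00017), Cst7 (from 0.156 ± 0.248 to 6.22 ± 5.53 CPM, adjusted p = 0.00083) and Tyrobp (log2 change 1.15 ± 0.26, adjusted p = 0.029).

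Relative to Csf1r, Sall1 (0.48), Gpr34 (0.59) and Selplg (0.44) were higher in aged than in young controls (exact permutation, adjusted p = 0.0173, 0.039 and 0.042). None of these 3 passed with Aif1 as the reference, where Sall1 had 0.14. With single libraries left out the call held in 12 of 12 repeats for Sall1 and in 9 of 12 for Gpr34, ended by young controls A, D and E (exact permutation, adjusted p = 0.055 each). The Selplg call held in 3 of 12, those without young control C or F or aged control F (exact permutation, adjusted p up to 0.078 in the others). Csf1r itself had a log2 change of -0.26 (adjusted p = 0.84) between the ages. Between the control ages 69.9% of all genes tested had a larger log2 change than P2ry12 (-0.09), which lay above Csf1r. A higher ratio is thus not particular to these 3 genes, and the share of all genes with a higher ratio was not tested.

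After MCAO, Gpr34 was the only member that differed between the ages, 1 of 9 where 10.9% of all genes did. That background of 1593 genes was 952 without aged MCAO library C, 1044 without E, 301 without C, E and F, and 607 in a fit of the MCAO libraries alone. It averaged 35.5 ± 4.86 CPM at 3 months and 51.4 ± 12.95 at 18 months (log2 change 0.54 ± 0.14, adjusted p = 0.017), and 5 of 6 aged libraries lay above every young one. Without library D of MCAO at 18 months, the highest at 73.6 CPM, the adjusted p was 0.053. Without aged MCAO libraries C, E and F it was 0.074, and in a fit of the 12 MCAO libraries alone 0.092. Cx3cr1 was lower in aged animals by -0.48 ± 0.24 (adjusted p = 0.2), and without young MCAO libraries A and C the change was 0.19 (adjusted p = 0.37). Without A and C, Selplg passed too (0.49, adjusted p = 0.029). Of the 20 core genes, 6 were higher in aged MCAO cortex, as were 5 of 9 monocyte genes. Without A and C these counts were 14 of 20 and 6 of 9.

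The MCAO effect itself did not differ between the ages in any of the 9 genes by edgeR's interaction test, where 0.0822% of all genes did. That background of 12 genes ran from 1 (without young control D) to 68 (without young MCAO F) with single libraries left out, and was 137 without young MCAO A and C. The count at an unadjusted p under 0.05 was 0 by edgeR, DESeq2 and limma-voom. The widest difference was that of Cx3cr1, -0.50 ± 0.34 (95% interval -1.20 to 0.20, adjusted p = 0.63), which was 0.16 without young MCAO libraries A and C. For P2ry12 it was 0.29 ± 0.29 (interval -0.31 to 0.89), and for Sall1 -0.16 ± 0.19 (interval -0.54 to 0.23).

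Within a group the 9 genes rose and fell together in some libraries and not in others. Library A of MCAO at 18 months was above its group mean in 9 of 9 genes, and library C of MCAO at 3 months in 7 of 9. Library A of MCAO at 3 months was the highest of its group for Cx3cr1, Tmem119, P2ry13, Siglech and Olfml3, yet the lowest for P2ry12 (16.8 CPM) and Gpr34 (26.2 CPM). In library D of the same group P2ry12 was highest (38.2 CPM) while Cx3cr1, Tmem119, Olfml3 and Selplg were lowest. Library D of MCAO at 18 months, from another animal, was highest for P2ry12 and Gpr34 and lowest for P2ry13, Tmem119 and Selplg. The summed level of disease-associated genes was 13180 CPM in library A, with a group median of 6049.

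**Figure D4:**
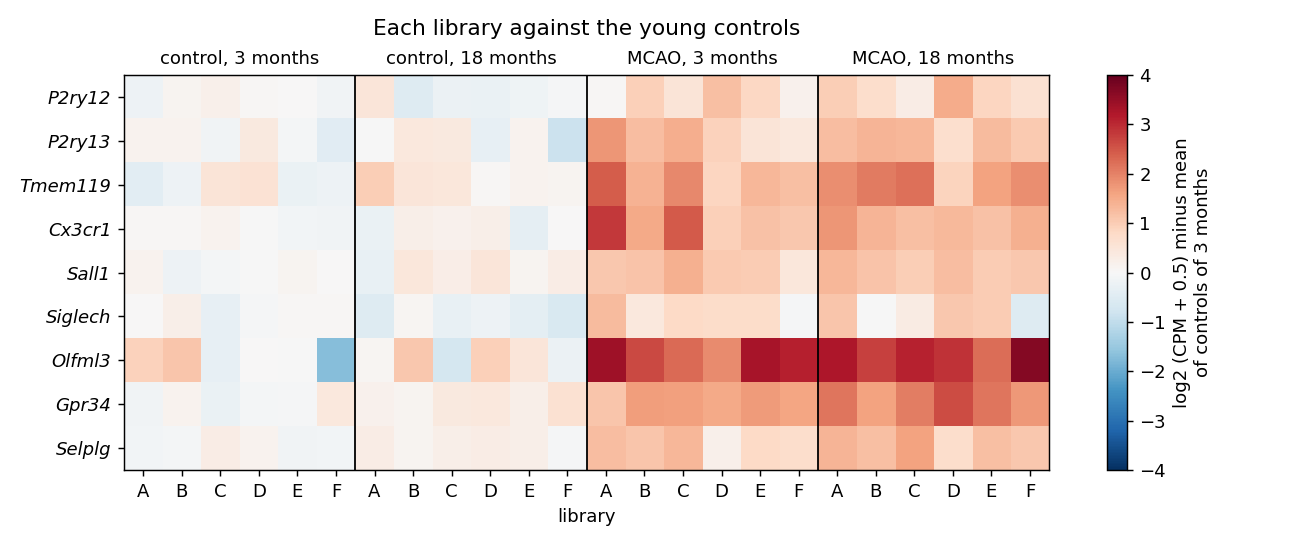
Each gene in each library as log2 (CPM + 0.5) minus the mean of the 6 young controls, red higher and blue lower, with the 4 groups side by side. Most MCAO squares are red, Siglech is pale or blue in library F of both ages, P2ry12 is pale in library A of 3 months, and the row of Cx3cr1 is darkest in libraries A and C.

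Across the 24 libraries, the genes nearest to each member were found among 12801 genes by the root mean square difference of centred log2 profiles, a description with no test. Cx3cr1 was nearest to Acads (0.24) and to Csf1r (0.28), against a root mean square of its own profile of 0.86. P2ry12 was nearest to Kctd12 (0.26) and Myo10 (0.27), P2ry13 to Haus8 (0.28) and Vamp3 (0.31), and Gpr34 to Zfp36l1 (0.27) and Itga6 (0.27). Tmem119 was nearest to Hexa (0.28), a lysosomal hexosaminidase gene, and to Crip1 (0.29). Sall1 was nearest to Rab31 (0.18) and Prdx6 (0.19), Selplg to Mapkapk2 (0.17) and Prdx1 (0.19), and Siglech to Prkcq (0.25) and Inppl1 (0.34). Olfml3 had the largest distances, with Aurka at 0.64 and Ptafr at 0.65, but also the largest root mean square of its own profile, 1.57. For no member was another of the 9 among the 2 nearest; Sall1 and Selplg were closest to each other at 0.33.

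The partners of the ADP receptors changed as well. Of 9 tested genes of nucleotide breakdown, adenosine and ATP sensing, 6 rose and 2 fell at 3 months (5 and 2 without A and C), and 6 rose and 1 fell at 18 months. Of these 9, 1 passed the filter with fewer than 6 of the 12 controls at its level. Entpd1 (CD39), which breaks down extracellular ATP and ADP, rose by 1.15 and 1.32, and Nt5e (CD73), which makes adenosine from AMP, by 1.21 and 0.79. The ATP receptor P2rx7 rose by 1.22 and 1.08, and Kcnk13 (THIK-1), the potassium channel of microglial surveillance, by 0.74 and 1.04. Adora1, the main adenosine receptor of neurons, fell by -0.35 and -0.71, and Entpd2 fell at 3 months (-0.81, adjusted p = 0.0068). P2ry14, the one paralogue of P2ry12 that could be tested of 5 listed, rose by 0.91 and 1.23, the first ending without libraries A and C (0.55, adjusted p = 0.2). P2ry14 passed the filter with fewer than 6 of the 12 controls at its level, so that its direction was partly set by the filter.

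These changes are relative to the bulk of the transcriptome. With scaling on the ERCC spike-in RNA added to each library, the median of all genes moved to -0.49 at 3 months and -0.32 at 18 months, and 1411 genes were higher and 6178 lower at 3 months in place of 2930 and 2521. All 9 genes kept a positive log2 change on that scale. At 3 months P2ry12 (0.24, adjusted p = 0.38), Siglech (0.23, adjusted p = 0.44) and Selplg (0.48, adjusted p = 0.06) no longer passed, and measured from the shifted median they were 0.74, 0.72 and 0.97 higher. At 18 months all 9 passed. Gpr34 after MCAO had 0.73 between the ages (adjusted p = 0.05) on that scale, where the median of all genes was 0.23.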

How the data were processed

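The counts of reads per gene used here were deposited by the authors for each of 24 libraries, 6 per group. Per the labels' protocols, 400 ng of total RNA entered a QuantSeq 3′ library preparation, which reads the end of each transcript. The submitters' processing notes name Trimmomatic, HTSeq, DESeq2 and GRCm38; versions, aligner, annotation and the use of strand in counting were not given in the sources used here. The normalised tables, 24 in all, were not used. Identifiers were matched to symbols for 46488 of 46983. Neither the 92 spike-ins nor the 5 summary lines entered a library size or a test. Between 25.7% and 34.5% of a library's reads fell outside genes, and 0.464% to 0.581% were ambiguous.

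All 24 libraries entered 1 edgeR 4.0.16 model (R 4.3.3) with a mean for each of 4 groups, scaled by TMM and filtered by default settings (minimum count 10), and were tested by the robust quasi-likelihood F test, two-sided, over 14599 genes. CPM are counts per M (mega) of TMM-scaled library size. The SE is the log2 change divided by the root of F, and 95% intervals use a t distribution with 20 residual degrees of freedom. Ratios used exact permutation tests (scipy 1.17.1). Alternatives were DESeq2 1.42.0, limma-voom 3.58.1, Aif1 as reference gene, other scalings and filters, a replicate block and left-out libraries; a second planned reference gene is not reported here. The model was tested on simulated counts.

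The members and lists were chosen with earlier results of these data known. Besides the 9 genes, the first 3 members of each list and the 3 with the smallest p could be named, and the 2 nearest profiles. Smad2, Smad3, Smad4, Tgfb1, Tgfb2, Tgfbr1, Nrros, Itgav, Itgb8 and Aif1 fall outside this rule and were named after their values were seen. The lists without young MCAO libraries A and C were added after seeing the data. Replicate letters name animals and are not stated to pair them. All within-group pairs of libraries differed by more than sampling noise (chi-square per degree of freedom 3.19 to 69.8). Among aged controls, pairs with library A had 13.1 to 21.2 and the other pairs 3.19 to 7.04. Reads carry no molecular identifiers.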

Additional observations from a re-analysis of the deposited data

Results flagged for a closer look

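Of 36 group values examined, 1 held a library far from the other 5, where chance flags about 1 in 20 groups. Cx3cr1 after MCAO at 18 months reached 557 CPM in library A, with the next library at 432 CPM, a gap of 0.644 of the group's whole range. Without that library the log2 change of Cx3cr1 after MCAO at 18 months was 1.26 in place of 1.35.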

How the results depend on the processing

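The calls of all 9 genes after MCAO at 18 months held under every alternative run. At 3 months all 9 held except P2ry12, Siglech and Selplg under spike-in scaling and Siglech without young MCAO A, without A and C, and without young control D with young MCAO C. After MCAO, the count of genes differing between the ages was 1 and became 0 with spike-in scaling, with only the groups compared and without libraries C, E and F of aged MCAO, and 2 without A and C of young MCAO; leaving out single libraries gave 0 (without aged MCAO D) to 1. The count of ratios to Csf1r past the test was 13, and 8 (without young control D) to 15 (without aged control F) when single libraries were left out. The letters are not stated to pair the animals. Deviations from group means of 36 same-letter pairs of libraries had correlations of -0.296 to 0.307 (median 0.037), 9 over 0.1. In 180 pairs of different letters they were -0.305 to 0.401 (median -0.017), 28 over 0.1. The difference between the 2 kinds of pair was not tested, so that something shared by letter remains possible. With the replicate block all 9 genes still passed at both ages and Gpr34 alone differed between ages after MCAO, while the ratio count was 0 by an exact sign-flip test of 6 pairs, whose smallest p is 0.0312; 23 of the 36 tests would have had to reach it, so this 0 says little.

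The values below changed sign and had not passed the test; the cause was not tested. With spike-in scaling they were, for the difference of the MCAO effect, Tmem119 0.0788, Sall1 0.0188 and Olfml3 0.0271, and between ages after MCAO Siglech 0.14. Without young MCAO A and C they were Cx3cr1 0.19 and Siglech 0.13 between ages after MCAO, and Tmem119 0.23 and Cx3cr1 0.16 for the difference. Without aged MCAO C, E and F they were P2ry13 -0.0319 and Siglech 0.0951 after MCAO, and P2ry13 -0.0168 and Selplg -0.0311 for the difference. Without young control D and young MCAO C, P2ry13 was 0.0816 between control ages.

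Leaving out single libraries gave these ranges of the log2 change. Between control ages they were -0.13 to 0.10 for P2ry13 and -0.0228 to 0.0913 for Cx3cr1. After MCAO they were -0.0729 to 0.23 for P2ry13, -0.0136 to 0.17 for Sall1, -0.21 to 0.0674 for Siglech and -0.013 to 0.30 for Olfml3. For the difference they were -0.0667 to 0.26 for P2ry13, -0.37 to 0.0595 for Tmem119, -0.35 to 0.15 for Olfml3 and -0.0233 to 0.18 for Selplg. Depth limits Olfml3 most, with as few as 2 reads in a control.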
